A study of Homo sapiens with 30 samples.

Results

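To ask what long RNA looks like in cells that express LARP6 without its N-terminal domain, 1 library of the ΔNTD line was compared with 1 library of parental U-87 MG cells. Genes entered the comparison when they reached at least 1 CPM (counts scaled to library size) in either of the 2 libraries. This gave 14427 genes of the 62750 gene identifiers counted. The parental cells, U-87 MG, are a widely used human line from a glioblastoma. LARP6 is an RNA-binding protein of the La-related family, best known for its contact with type I collagen mRNAs. Its N-terminal domain (NTD) holds a disordered N-terminal region (NTR) and the La-module, a folded unit that grips RNA, and a C-terminal region (CTR) follows.

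The 5 variant lines carried codon-optimised, myc-tagged LARP6 in a doxycycline-inducible lentiviral vector. They expressed full-length protein (FL) or protein without the NTR (ΔNTR), the La-module (ΔLa-module), both (ΔNTD) or the CTR (ΔCTR). They were puromycin-selected populations. Parental cells carried no vector, and all 6 lines keep their own LARP6 gene. The labels list doxycycline at 60 ng/mL for 24 h for every line, parental cells included. Expression of the variant, transduction, selection and time in culture cannot be told apart from the deletion in ΔNTD against parental, because all of them differ between the 2 libraries. With 1 library a side no test was possible. Most differences are therefore given beside the values of the other 4 variant lines, which are separate lines and not replicates of ΔNTD. A difference given for parental cells and ΔNTD alone is not thereby particular to ΔNTD. In bulk RNA, fewer cells with a transcript and less transcript per cell cannot be told apart.

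Cells adapt to low oxygen through the HIF transcription factors, which bind a short DNA element and switch on glucose uptake, glycolysis, acid export, mitophagy and vessel growth. NRF2 is a transcription factor that controls detoxifying enzymes and the supply of glutathione and NADPH. Genes of these 2 programmes recur among the largest differences described here.

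Between 25027075 and 28692476 reads were counted in genes per library, 26683408 in parental cells and 27792104 in ΔNTD. Mesenchymal glioma markers were abundant in all 6 libraries: the list of 8 summed to between 17940 and 20050 CPM. Of the astrocyte markers, GFAP reached at most 0.24 CPM and AQP4 had no count in any library. AIF1, P2RY12 and TYROBP, markers of microglia and blood, also had 0 counts throughout. Other markers of these lists were present in every library, with SLC1A3 of astrocytes at 46.7 to 59.7 CPM. CSF1R of microglia and blood was at 19.7 to 24.9 CPM, and the neuron marker SNAP25 at 57.9 to 65.7 CPM. The share of reads outside genes was 21.3% in ΔNTD and 23.0 to 24.3% in the other 5 libraries, and the part this plays in the results below was not tested.

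In ΔNTD, 37 genes were at least 2-fold higher than in parental cells (0.256% of the 14427) and 10 at least 2-fold lower (0.0693%), on the log2(CPM + 1) scale used for every fold here. At 1.5-fold the numbers were 218 (1.51%) and 229 (1.59%), and the median of all genes was -0.0067. Of the 37 higher genes 34 were protein-coding and 3 lncRNA genes, beside 11811 and 2045 of all 14427 genes. Under 1 CPM in parental cells lay 7 of the 37, beside 375 of all 14427. Such genes entered through their ΔNTD level alone, and so could only lie above parental cells. Near the entry limit, EMC1-AS1 (1.01 CPM in parental cells and 0.545 in ΔNTD) was just inside and FAM131C (0.634 and 0.981) just outside.

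**Figure D1:**
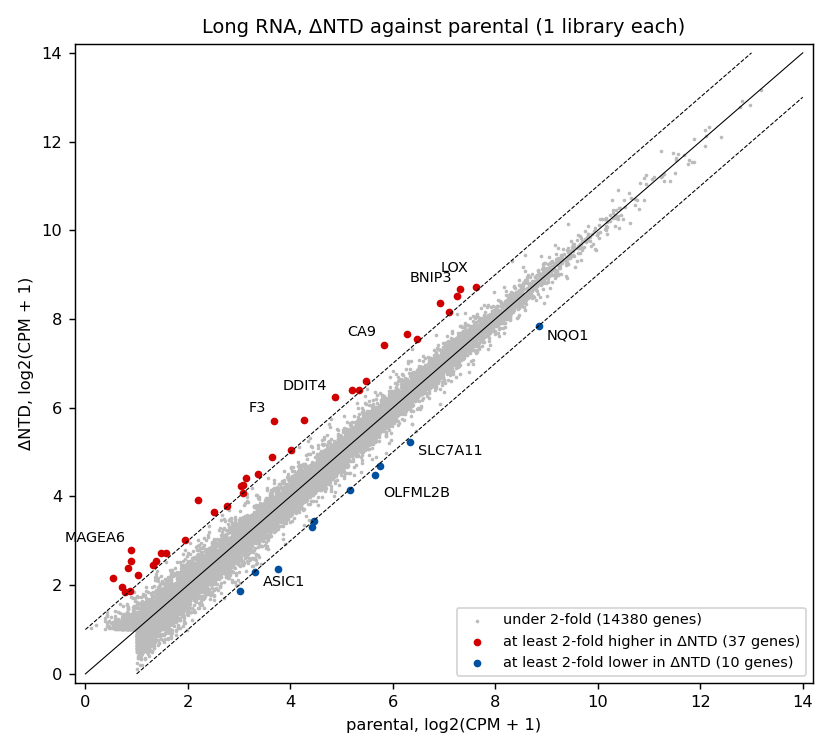
Level of each of the 14427 genes in parental cells (x axis) and in ΔNTD (y axis), both as log2(CPM + 1), 1 library each. The solid line marks equal levels and the dashed lines a 2-fold difference; the 37 higher genes in red run from low to high levels, and the 10 lower genes in blue include NQO1.

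How large this is for the cell system can be read from the other lines. On the same genes and against the same parental library, 8 genes differed at least 2-fold in FL (0.0555%), 106 in ΔNTR (0.735%), 58 in ΔLa-module (0.402%) and 11 in ΔCTR (0.0762%). Between ΔNTD and the other variant lines the numbers, each below the 47 against parental, were 0 (0%) against FL, 0 (0%) against ΔCTR, 1 (0.00692%) against ΔLa-module and 10 (0.0686%) against ΔNTR. The 1 gene was PLAC8, at 2.29 CPM in ΔNTD and 0.629 in ΔLa-module. Of the 10 genes 9 were higher in ΔNTR, among them SAT1, a polyamine-catabolising acetyltransferase, with 55.9 CPM in ΔNTR against 22.8 in ΔNTD and 23.5 to 35.7 in the other 4 libraries.

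For all 47 of these genes the parental library lay outside the range of FL, ΔNTR, ΔLa-module and ΔCTR. In 37 of them ΔNTD lay within that range, and in the other 10 both ΔNTD and parental lay outside it. Parental was the lowest of the 6 libraries for 37 of 37 higher genes and the highest for 10 of 10 lower genes, against 21.0 and 24.8% of all 14427 genes. These genes were selected through the parental library, so their counts describe the selection and support nothing. Set against the mean of the 4 other variant lines in place of parental cells, 0 genes were 2-fold higher or lower in ΔNTD.

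Genes induced by low oxygen made up the largest functional group. Of the 29 genes in the list, 10 were at least 2-fold higher in ΔNTD, 20 at least 1.5-fold higher and 0 lower at either fold. Over all genes 0.256 and 1.51% were higher at 2-fold and 1.5-fold, and 0.0693 and 1.59% lower. All 29 lay above parental, as did 7029 of all 14427 genes, and the median log2 fold was 0.87. Summed over the list, the level was 4033 CPM in parental cells, 5042 in FL, 5215 in ΔCTR, 6374 in ΔNTD, 6734 in ΔLa-module and 7419 in ΔNTR. In 25 of the 29 genes ΔNTD took the third place of 6, below ΔNTR and ΔLa-module and above FL and ΔCTR. The same position held in 819 of all 14427 genes. The medians against the shared parental library were 0.41 in FL, 0.44 in ΔCTR, 0.91 in ΔLa-module and 1.12 in ΔNTR. Against the mean of the 4 other lines the ΔNTD median was 0.10. All gene lists here were written with earlier results of these data known, so their counts are a description and no test.

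The genes of acid and glucose handling are given first. SLC16A3, AK4, APLN, MIR210HG and HIF3A, given with the groups below by their known roles, are not in the list of 29 and add nothing to its counts. CA9, a cell-surface carbonic anhydrase, stood at 56.2 CPM in the parental library, 114 in FL, 241 in ΔNTR, 201 in ΔLa-module, 129 in ΔCTR and 170 in ΔNTD. The ratio of ΔNTD to parental was 3.02, with an exact 95% binomial interval of 2.85 to 3.21 that covers counting error only. Parental was the lowest library by a wide margin, while ΔNTD lay inside the span of the other lines. SLC2A1, the glucose transporter GLUT1, had 77.0 CPM in parental, 129 in FL, 260 in ΔNTR, 243 in ΔLa-module, 133 in ΔCTR and 203 in ΔNTD (log2 fold 1.39). PDK1, a kinase that holds pyruvate out of the citric acid cycle, was at 87.9, 140, 216, 199, 138 and 188 CPM in the same order (log2 fold 1.09). SLC16A3, the lactate exporter MCT4, was at 43.8, 75.7, 159, 123, 89.0 and 96.3 CPM (log2 fold 1.12). For SLC16A3 ΔNTD lay nearer to ΔCTR than to ΔLa-module.

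Genes that act on mitochondria and on growth signalling had a similar order of libraries. BNIP3, a mitophagy receptor, had 157 CPM in parental, 259 in FL, 499 in ΔNTR, 417 in ΔLa-module, 289 in ΔCTR and 410 in ΔNTD (log2 fold 1.38, ratio 2.61, 2.52 to 2.703). AK4, a mitochondrial adenylate kinase, was at 121, 220, 389, 332, 226 and 330 CPM in the same order (log2 fold 1.44). ΔNTD and ΔLa-module were nearly level for both genes. DDIT4, an inhibitor of mTORC1 also known as REDD1, was at 28.2 CPM in parental, 46.9 in FL, 123 in ΔNTR, 99.0 in ΔLa-module, 45.8 in ΔCTR and 75.2 in ΔNTD. Here FL and ΔCTR lay about midway between parental cells and ΔNTD on the log2 scale. NDRG1 was at 152 CPM in parental cells and 364 in ΔNTD, with the other lines from 235 to 497. MXI1, an antagonist of MYC, was at 7.42 and 15.9 CPM, with the others from 9.73 to 24.9.

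Among secreted and matrix proteins, LOX, the lysyl oxidase that cross-links collagen, had 197 CPM in parental, 304 in FL, 538 in ΔNTR, 425 in ΔLa-module, 336 in ΔCTR and 420 in ΔNTD (log2 fold 1.09). ANGPTL4, an inhibitor of lipoprotein lipase, was at 7.24, 9.51, 29.8, 19.8, 13.2 and 17.7 CPM in the same order. APLN, the peptide hormone apelin, was at 18.2, 34.3, 54.6, 59.3, 36.3 and 52.2 CPM, and here ΔLa-module was highest. HILPDA, a lipid droplet protein, had 7.80 CPM in parental cells and 20.3 in ΔNTD, with the others from 12.1 to 28.0. VEGFA, the angiogenic growth factor, differed less, with 473 CPM in parental cells, 685 in ΔNTD and 574 to 833 in the others (log2 fold 0.53). MIR210HG, the host transcript of the low-oxygen microRNA miR-210, was at 2.84 and 7.05 CPM.

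The sensing machinery itself is given by 4 of its mRNAs, with small differences for HIF1A and EPAS1 and larger ones for EGLN1 and HIF3A. HIF1A had 727 CPM in parental cells, 828 in ΔNTD and 779 to 818 in the other lines, a log2 fold of 0.19. EPAS1, which encodes HIF-2α, had 338 and 391 CPM (0.21). EGLN1, an oxygen-sensing prolyl hydroxylase, was at 10.9 CPM in parental cells, 20.2 in ΔNTD and 14.8 to 30.5 in the others. HIF3A was at 0.71 CPM in parental cells and 2.62 in ΔNTD, and ΔNTR had 4.44.

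**Figure D2:**
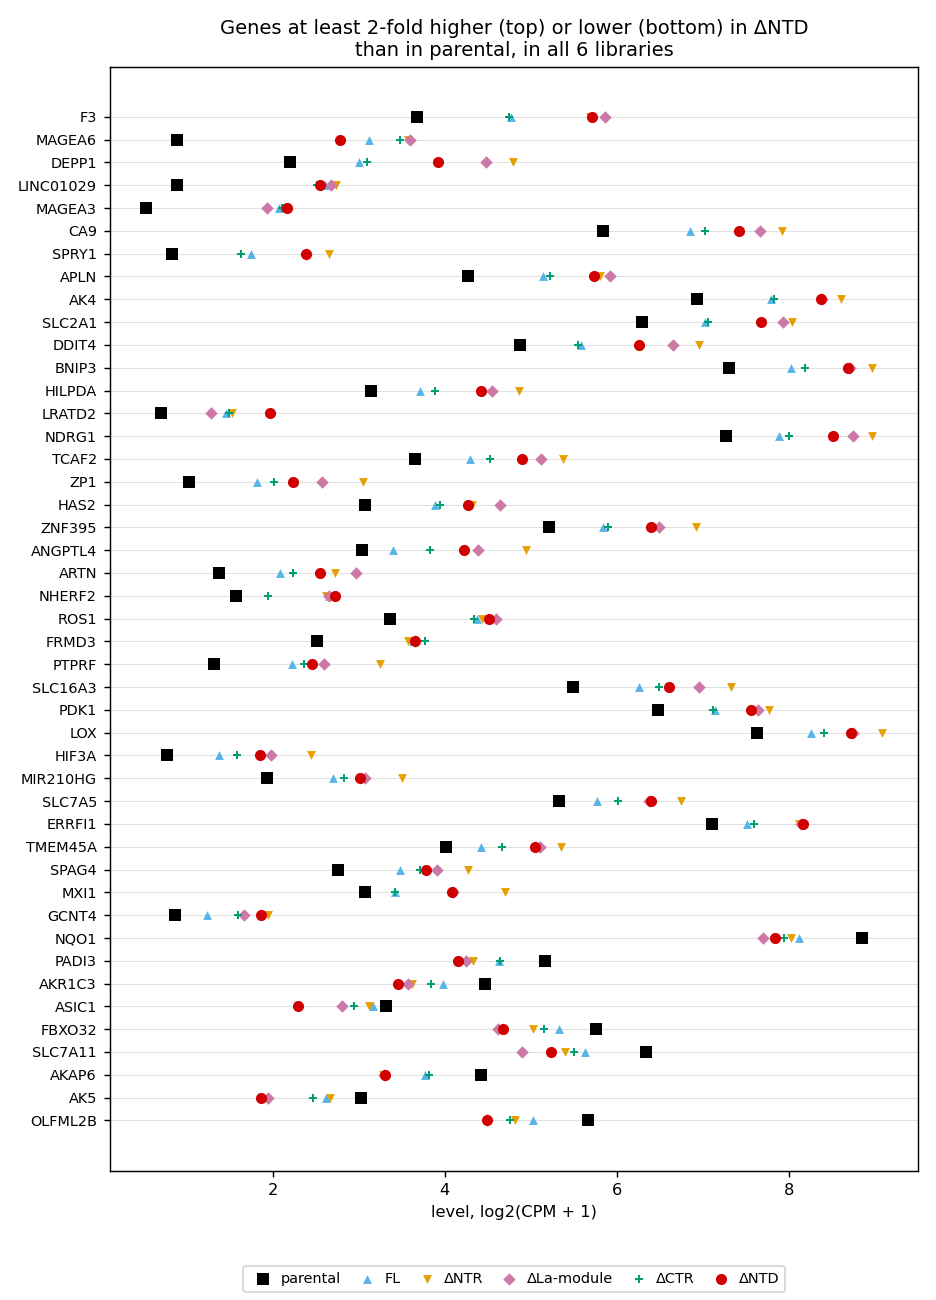
Level as log2(CPM + 1) (x axis) of the genes at least 2-fold higher or lower in ΔNTD than in parental cells that have a symbol (y axis, 36 and 9 genes), with 1 point for each of the 6 libraries and no replicates. The parental squares lie at the outer left of every higher gene and the outer right of every lower gene, and most ΔNTD circles fall among the other variant lines.

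Glycolytic enzymes and glucose transporters followed with smaller differences. Of 25 genes, 21 lay above parental (7029 of 14427 over all genes), 6 by at least 1.5-fold and 3 by at least 2-fold, with a median of 0.31. Over all genes 1.51% were 1.5-fold and 0.256% 2-fold higher. SLC2A1, PDK1 and SLC2A3 are also members of the low-oxygen list. PGK1 had 682 CPM in parental cells, 1127 in ΔNTD and 894 to 1220 in the other variant lines. In the same order LDHA had 2407, 3531 and 2893 to 3638 CPM, and ENO2 169, 282 and 224 to 371. The steps at GAPDH (log2 fold 0.18), ENO1 (0.17) and PKM (0.011) differed far less. In 18 of the 25 genes ΔNTD again lay below ΔNTR and ΔLa-module and above FL and ΔCTR.

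The 250 bases before the start of 4 of these genes are shown because their mRNAs differed together and because HIF binds the core letters ACGTG or GCGTG. Bases are from RefSeq, build GRCh38.p14, printed in the direction of transcription, with each match on either strand in capitals. CA9 lies at chr9:35673678-35673927 on the plus strand, DDIT4 at chr10:72273674-72273923 on the plus strand, BNIP3 at chr10:131981924-131982173 on the minus strand and LOX at chr5:122078260-122078509 on the minus strand.
CA9: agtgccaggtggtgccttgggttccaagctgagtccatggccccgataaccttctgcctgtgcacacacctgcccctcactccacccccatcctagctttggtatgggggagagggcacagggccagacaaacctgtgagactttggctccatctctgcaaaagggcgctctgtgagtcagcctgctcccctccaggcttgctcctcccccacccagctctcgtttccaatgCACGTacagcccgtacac
DDIT4: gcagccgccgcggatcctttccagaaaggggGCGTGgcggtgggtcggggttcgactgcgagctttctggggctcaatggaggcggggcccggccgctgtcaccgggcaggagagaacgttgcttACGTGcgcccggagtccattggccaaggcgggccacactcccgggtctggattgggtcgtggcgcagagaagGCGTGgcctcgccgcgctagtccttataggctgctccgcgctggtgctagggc
BNIP3: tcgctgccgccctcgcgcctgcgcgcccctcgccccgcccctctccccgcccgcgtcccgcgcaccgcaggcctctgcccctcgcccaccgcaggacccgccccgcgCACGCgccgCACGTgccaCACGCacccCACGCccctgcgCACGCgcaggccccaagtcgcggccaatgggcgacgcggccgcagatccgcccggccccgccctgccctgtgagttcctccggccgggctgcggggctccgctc
LOX: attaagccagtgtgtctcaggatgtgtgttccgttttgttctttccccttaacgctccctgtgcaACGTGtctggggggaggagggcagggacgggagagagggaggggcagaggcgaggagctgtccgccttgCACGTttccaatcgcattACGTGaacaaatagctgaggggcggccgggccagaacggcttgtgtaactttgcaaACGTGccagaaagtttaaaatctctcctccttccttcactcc
CA9 had 1 match, DDIT4 3, BNIP3 5 and LOX 4, counted without overlaps. SLC2A1, PDK1 and MXI1 had none in this window.

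Over the window of 250 bases before to 50 after the start, ACGTG or GCGTG was held by 63.2% of the 10430 promoters found for the genes compared. It was held by 19 of 23 promoters of the low-oxygen list (82.6%, Wilson 95% interval 62.9 to 93.0%) and by 15 of 29 of the higher genes (51.7%, 34.4 to 68.6%). Of the 6 sequences listed first, CACGTG was held by 4 of the 29 higher promoters (13.8%) against 10.0% of all, TGANTCA by 2 (6.90% against 4.98%), TATAAA by 5 (17.2% against 5.94%) and CCAAT by 14 (48.3% against 37.2%). TGACGTCA and TGATGNAA were held by 0 of the 29, against 3.55 and 1.81% of all. CACGTG overlaps ACGTG. Of the 10 lower genes only 6 had a promoter in the table. A match is a description of letters and not a binding site.

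Not all of the higher genes belong to the low-oxygen list. The highest fold of all was in F3, tissue factor, which starts blood coagulation, with 11.8 CPM in parental, 26.3 in FL, 50.5 in ΔNTR, 56.9 in ΔLa-module, 25.8 in ΔCTR and 51.4 in ΔNTD. Its log2 fold was 2.04 and its ratio 4.36 (3.86 to 4.94). ΔNTD, ΔNTR and ΔLa-module lay close together, at about the same distance above FL and ΔCTR. F3 is also in the list of YAP/TAZ-TEAD targets, of which it was the only one of 21 at 2-fold. Over all genes 0.256% were 2-fold higher and 0.0693% lower. The median of that list was 0.037.

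Several of the others act in receptor signalling. ERRFI1, a feedback inhibitor of the EGF receptor, had 136 CPM in parental, 182 in FL, 276 in ΔNTR, 281 in ΔLa-module, 192 in ΔCTR and 285 in ΔNTD (log2 fold 1.06). SPRY1, an inhibitor of receptor tyrosine kinase signalling, was at 0.78, 2.35, 5.29, 4.23, 2.10 and 4.25 CPM in the same order (1.56). ARTN, a ligand of the GDNF family, was at 1.60 CPM in parental cells and 4.83 in ΔNTD, with the others from 3.24 to 6.81. ROS1, a receptor tyrosine kinase, stood out by the evenness of the variant lines. It had 9.29 CPM in parental, 19.7 in FL, 20.5 in ΔNTR, 23.1 in ΔLa-module, 19.3 in ΔCTR and 21.8 in ΔNTD. FRMD3 was alike, at 4.70 CPM in parental cells, 11.6 in ΔNTD and 10.9 to 12.7 in the others.

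HAS2, which makes hyaluronan, had 7.39 CPM in parental cells, 18.2 in ΔNTD and 13.8 to 23.9 in the others. SLC7A5, the amino acid transporter LAT1, had 39.2 CPM in parental cells and 83.3 in ΔNTD, with the others from 53.4 to 106. It is 1 of 2 genes of the 29 in the ATF4 list at 2-fold higher, beside DDIT4, while SLC7A11 of that list was 2-fold lower. Over all genes 0.256% were 2-fold higher and 0.0693% lower. The ATF4 list had a median of 0.11, beside -0.013 in FL, 0.19 in ΔNTR, 0.086 in ΔLa-module and -0.026 in ΔCTR.

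A few genes were under 1 CPM in parental cells alone. MAGEA6, a cancer-testis antigen gene of the X chromosome, had 0.86 CPM in parental, 7.70 in FL, 10.9 in ΔNTR, 11.1 in ΔLa-module, 10.2 in ΔCTR and 5.89 in ΔNTD. MAGEA3 was at 0.45 CPM in parental cells and 2.83 to 3.49 in the 5 variant lines. These 2 genes are near-identical copies whose reads cannot be assigned with certainty. LINC01029, an lncRNA gene, was at 0.86 CPM in parental cells and 4.73 to 5.65 in the variant lines. For MAGEA6 ΔNTD was the lowest variant line, and for LINC01029 the 5 variant lines were almost level.

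On the lower side, NRF2 targets were the largest group. Of 24 genes in the list, 3 were at least 2-fold lower, 8 at least 1.5-fold lower and 0 higher at 1.5-fold, with a median of -0.32. Over all genes 0.0693% were 2-fold lower, 1.59% 1.5-fold lower and 1.51% 1.5-fold higher. The medians against the same parental library were -0.31 in FL, -0.29 in ΔNTR, -0.39 in ΔLa-module and -0.35 in ΔCTR. Parental was the highest of the 6 libraries in 20 of the 24 genes, against 24.8% of all genes. The ΔNTD median lay between those of the other 4 lines, and all 5 spanned 0.103.

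NQO1, a quinone reductase, had 459 CPM in parental, 277 in FL, 258 in ΔNTR, 206 in ΔLa-module, 245 in ΔCTR and 228 in ΔNTD, a log2 fold of -1.01 and a ratio of 0.50 (0.48 to 0.51). SLC7A11, which imports cystine for glutathione synthesis, was at 79.9, 48.5, 41.2, 28.7, 44.4 and 36.7 CPM in the same order (log2 fold -1.10). AKR1C3, an aldo-keto reductase, was at 21.1, 14.8, 11.3, 10.9, 13.3 and 9.96 CPM (-1.01). For all 3 genes every variant line was below parental cells. AKR1C1 (-0.84) and AKR1C2 (-0.82) are close copies of AKR1C3, and reads shared between them are uncertain. PIR was at 13.8 CPM in parental cells and 6.58 in ΔNTD, and ABCC2, an efflux pump, at 57.3 and 30.7. HMOX1, haem oxygenase, went against the list with 114 CPM in parental cells and 148 in ΔNTD, and NFE2L2, which encodes NRF2, was at 116 and 121.

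The remaining lower genes had no common list. OLFML2B had 49.5 CPM in parental, 31.6 in FL, 27.2 in ΔNTR, 21.5 in ΔLa-module, 26.0 in ΔCTR and 21.5 in ΔNTD. FBXO32, the ubiquitin ligase atrogin-1, was at 53.05, 39.1, 31.5, 23.6, 34.4 and 24.6 CPM in the same order. In both genes ΔNTD and ΔLa-module were nearly equal. AKAP6, an anchor of protein kinase A, was at 20.3 CPM in parental cells, 8.87 in ΔNTD and 8.69 to 13.04 in the others. AK5, an adenylate kinase, was at 7.13 and 2.65 CPM, with ΔLa-module at 2.86 and the rest from 4.54 to 5.33. PADI3, a peptidylarginine deiminase, was at 34.7 and 16.7 CPM with the others from 18.03 to 23.9. The lowest fold was in the lncRNA gene ENSG00000290032, with 12.5 CPM in parental cells, 4.18 in ΔNTD and 3.74 to 6.17 in the others.

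To find what set ΔNTD apart from every other library, genes were taken whose ΔNTD level lay at least 0.5 on the log2 scale beyond all 5. There were 2 above (0.0139% of the 14427) and 9 below (0.0624%). ASIC1, an acid-sensing ion channel, was the only one of these that was also 2-fold different from parental cells. It had 8.95 CPM in parental, 7.94 in FL, 7.69 in ΔNTR, 5.97 in ΔLa-module, 6.68 in ΔCTR and 3.89 in ΔNTD, a ratio of 0.43 (0.34 to 0.55) to parental. SNORD3A, a U3 small nucleolar RNA of ribosome assembly, was the most abundant. It was at 80.7 CPM in parental cells, 89.6, 94.6, 88.4 and 83.7 in FL, ΔNTR, ΔLa-module and ΔCTR, and 55.6 in ΔNTD. The 5 other libraries were close together and ΔNTD lay apart from them.

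Most of the others were low. GHRLOS had 2.73 CPM in ΔNTD and 4.69 to 5.56 elsewhere, DYNLRB1, a dynein light chain, 1.53 against 2.73 to 3.32, and PCED1A 0.94 against 1.80 to 2.66. DNAJC12, a co-chaperone, had 0.91 CPM against 1.85 to 2.14, and TEX22 0.40 against 1.03 to 1.60. GHRLOS, DYNLRB1, DNAJC12 and TEX22 each overlap another gene on their strand, and reads that fall in 2 genes were not counted. Above the others lay PLAC8, with 2.29 CPM against 0.63 to 1.11, and the lncRNA gene MMADHC-DT, with 1.45 against 0.34 to 0.73. With at least 5 CPM required in parental cells or ΔNTD, 2 genes were left in place of 11. CXADR, a cell adhesion receptor used by adenoviruses, fell short of this distance. It had 7.95 CPM in parental cells, 14.9 in ΔNTD and 9.93 to 11.2 in the others.

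The mRNAs encoded by the mitochondrial genome, which are cut from shared precursors and so do not vary independently, were lowest in ΔNTD for 12 of 13, against 17.5% of all genes. The median was -0.33 in ΔNTD, -0.22 in ΔNTR, -0.12 in ΔCTR, -0.068 in FL and -0.040 in ΔLa-module. MT-ND6, a complex I subunit, had 183 CPM in parental, 210 in FL, 155 in ΔNTR, 188 in ΔLa-module, 186 in ΔCTR and 132 in ΔNTD. MT-ATP6, an ATP synthase subunit, was at 992, 1058, 851, 1089, 921 and 748 CPM in the same order. For both genes ΔNTR was the nearest library to ΔNTD. MT-CO1 was the exception, at 7207 CPM in ΔNTD, above 7191 in FL and 6951 in ΔNTR. No mitochondrial mRNA differed by 1.5-fold. Nuclear-encoded respiratory chain subunits had a median of -0.11 in ΔNTD and of -0.11 to -0.073 in the other lines.

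**Figure D3:**
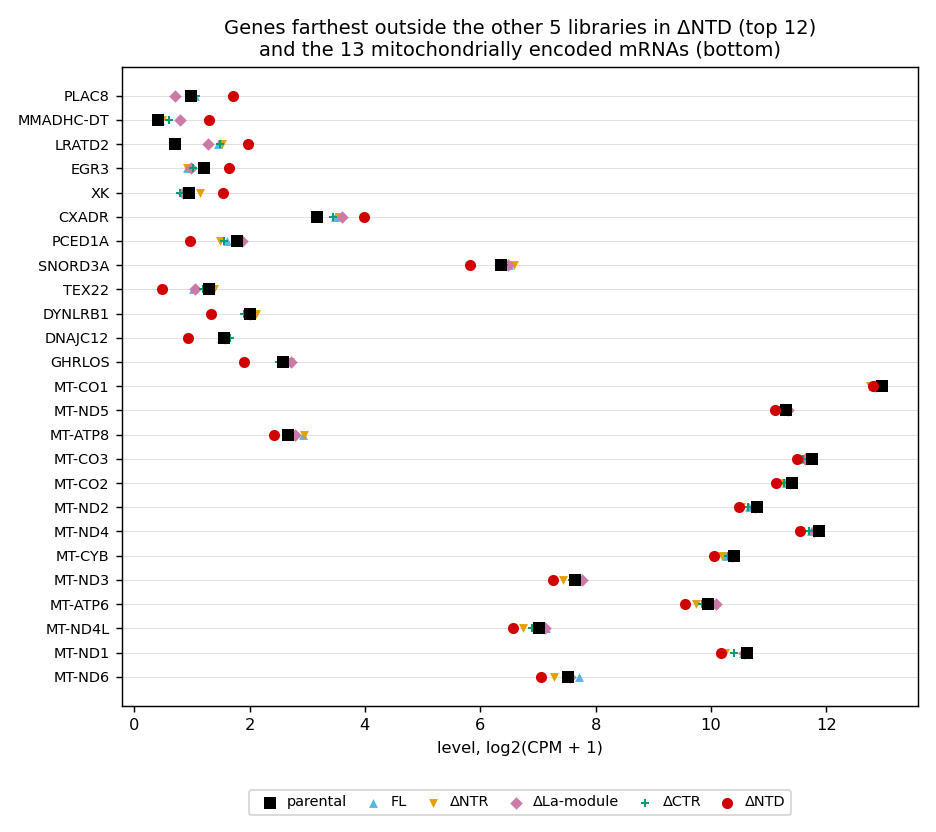
Level as log2(CPM + 1) (x axis) in each of the 6 libraries for the 6 genes farthest above and the 6 farthest below all others in ΔNTD, and for the 13 mitochondrially encoded mRNAs (y axis). ΔNTD circles stand outside the other points for the first 12 genes by construction and lie leftmost for 12 of the 13 mitochondrial mRNAs.

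Collagens and the LARP family were examined because of what LARP6 is known to bind. COL1A1 was at 856 CPM in parental, 730 in FL, 629 in ΔNTR, 974 in ΔLa-module, 995 in ΔCTR and 894 in ΔNTD. COL1A2 was at 774, 681, 586, 690, 717 and 631 CPM in the same order. Neither gene differed by 1.5-fold, and ΔNTD lay within the span of the other lines for both. Of 5 fibrillar collagen genes 0 reached 1.5-fold. COL4A2, a basement membrane collagen, was the 1 of 13 other collagen genes that did, with 18.4 CPM in parental cells, 9.23 in ΔNTD and 9.09 to 11.2 in the others. Of 22 collagen-modifying enzymes and chaperones, LOX was 2-fold higher, and PLOD2 (log2 fold 0.87) and P4HA1 (0.78), which hydroxylate collagen chains, were above 1.5-fold. Over all genes 0.256% were 2-fold higher, 1.51% 1.5-fold higher and 1.59% 1.5-fold lower. The median of the 22 was -0.028, and LOX and P4HA1 are also in the low-oxygen list. LARP6 itself was at 53.5 CPM in parental cells and 56.8 in ΔNTD, with the others from 51.6 to 75.0. The vector is codon-optimised, so this value is no check of the label. The 7 genes of the LARP family and La all lay above parental by 0.043 to 0.28, beside 7029 of all 14427 genes above parental. SSB, the La protein, differed the most. The list median was 0.091 in ΔNTD, 0.098 in FL, -0.0093 in ΔNTR, 0.11 in ΔLa-module and 0.034 in ΔCTR.

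Peaks of the FL and ΔNTD variants in the same cells came as lists pooled over 3 iCLIP replicates. A peak of the FL list had its centre in an exon of 14 of the 37 higher genes (37.8%, Wilson 24.1 to 53.9%) and of 1 of the 10 lower genes (10.0%, 1.79 to 40.4%), against 29.3% of all 14427. Peaks are found more often in abundant mRNAs. Above 100 CPM all 8 higher genes had an FL peak, against 80.4% of all genes at that level, and from 10 to 100 CPM 5 of 13 had one, against 30.8%. ERRFI1 held 15 FL peaks, APLN 11 and LOX 10, while F3, DEPP1 and HILPDA held 0. Conversely, 15 of the 4232 genes with an FL peak were called either way (0.354%), against 32 of the 10195 without (0.314%). The ΔNTD list touched 178 of the 14427 genes, 24 of them with a peak score above 3, and 0 of the 178 were 2-fold different. Over all genes 0.256% were 2-fold higher and 0.0693% lower, so a set of this size cannot show a difference. The paper states that the ΔNTD mutant did not bind RNA in cells and left it out of later steps. Its peaks are therefore not read as binding sites here.

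The libraries of 50 nt reads, described as small RNA, came from the same lines and held few mRNA reads. The labels do not say whether they were made from separate cultures or RNA. Of the 37 higher genes 11 had at least 20 counts there over parental cells and ΔNTD. Of these 11 of 11 were higher in ΔNTD, beside 71.1% of the 2893 genes with such counts. The minimum was on the sum of the parental and ΔNTD counts, so a gene could pass mainly through ΔNTD, and these signs are a description. NDRG1 had 44 counts in parental cells and 74 in ΔNTD of 10307756 and 9326702, DDIT4 35 and 56, LOX 9 and 30, and PDK1 4 and 18. Of the low-oxygen list all 20 genes with 20 counts were higher, with a median log2 fold of 0.63 beside 0.21 for all genes. Only 2 of the 10 lower genes could be read there. SLC7A11 had 18 and 13 counts. NQO1 had 9 and 11, a log2 fold of 0.22 where the median of all genes was 0.21. Of the NRF2 list 10 genes had 20 counts, 6 of them higher in ΔNTD and 4 lower, with a median of 0.15. Of the genes 1.5-fold lower in long RNA 14 had such counts, 8 higher and 6 lower. All genes were shifted upwards in these libraries, so a fold above 0 does not mark a higher level. The NRF2 list (60% higher) and the 1.5-fold lower genes (57.1% higher, median 0.038) lay below the 71.1% and 0.21 of all genes. With so few genes and counts, these libraries cannot decide whether the NRF2 list was lower.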

How the data were processed

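PE150 libraries of 6 U-87 MG lines (1 each) were used, with the SE50 libraries and the FL and ΔNTD peak lists as side measures. Members and gene lists were chosen with earlier results of these data known. The authors trimmed reads with Trim Galore 0.6.10 and aligned them with STAR 2.7.10b to GRCh38.p13 (GENCODE 42). The deposited gene counts are raw counts by strand; the reverse column was used for PE150 and the forward column for SE50. The score of a peak is the authors' sum over 3 replicates after subtraction of parental peaks. Of 62750 identifiers, 62625 were named by GENCODE 44 and 125 were not, 8 of them among the genes compared.

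Counts were divided by totals scaled with TMM factors (edgeR 4.0.16; SE50 by totals alone), and folds were taken on log2(CPM + 1), which understates low genes. Genes needed 1 CPM in parental cells or ΔNTD. Called means 2-fold. Ratios carry exact 95% binomial intervals, which cover counting error only, as no molecular identifiers are stated. With 1 library a side there is no p-value. The calling step was tested on simulated data. Genes named are the 15 highest and 15 lowest folds with a symbol, the 6 farthest above and below all other libraries, up to 4 per list, LARP6, COL1A1 and COL1A2; further called genes and list members, and the letters ACGTG or GCGTG, were chosen after their values were seen. Results were recomputed with a pseudocount of 0.25 CPM, DESeq2 1.42.0 size factors, totals alone, a minimum of 5 CPM, no minimum, unstranded counts, the mean of the 4 other variant lines as reference, 1.5-fold, and protein-coding genes alone. A few deposited peak lists and libraries outside this comparison were not used here.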

Additional observations from a re-analysis of the deposited data

How the results depend on the processing

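No paired analysis was possible because each line has 1 long-RNA library and the result comes from no test, so leaving out a replicate was not possible. The 37 higher and 10 lower genes became 83 and 93 with a pseudocount of 0.25 CPM, 218 and 229 at 1.5-fold, and 0 and 0 with the mean of the 4 other variant lines as the reference. With the smaller pseudocount all 37 and all 10 were still called. The unstranded counts called 33 of the 37 and 7 of the 10. The 11 genes beyond all other libraries became 75 with that pseudocount, 2 at 5 CPM, 19 with unstranded counts and 7 among protein-coding genes. Of the called genes, ΔNTD alone lay outside the other 4 lines for 0 as reported, for 23 with the smaller pseudocount and for 46 at 1.5-fold; parental alone for 71 and 192 in place of 37, both for 82 and 207 in place of 10, and neither for 2 in place of 0 at 1.5-fold. With the 4 lines as the reference the low-oxygen median was 0.10 and the NRF2 median -0.042, and 8 genes changed sign: MAGEA6 (-0.66), LINC01029 (-0.081), ZP1 (-0.13), FRMD3 (-0.0026), PTPRF (-0.16), SLC16A3 (-0.15), MIR210HG (-0.017) and SPAG4 (-0.059). These follow from the reference itself, which leaves parental cells out. Peaks with a score above 3 lay in 0% of the lower genes in place of 10. At 50 SE50 counts no lower gene was left. DESeq2 size factors, totals alone and no minimum kept both counts within 1.5 times. Counting error is widest for genes under 10 CPM, which hold 16 of the 37 and 3 of the 10.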

Other observations

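Interferon-stimulated genes lay mostly below parental cells in ΔNTD: 5 of 36 were above, beside 7029 of all 14427 genes, and 1 was at least 1.5-fold lower, beside 1.59% of all genes. The median log2 fold was -0.15, beside -0.11 in FL, -0.16 in ΔNTR, -0.14 in ΔLa-module and -0.076 in ΔCTR. USP18, which removes the ubiquitin-like protein ISG15, had 14.9 CPM in parental cells, 9.67 in ΔNTD and 9.75 to 10.9 in the other lines. IFIH1, a sensor of double-stranded RNA, had 4.29 CPM in parental cells, 2.65 in ΔNTD and 2.92 to 3.99 in the others. SAMD9 went the other way, with 29.4 CPM in parental cells, 44.2 in ΔNTD and 38.6 to 45.9 in the others.

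Core histone genes were above parental cells in 11 of 67, beside the same 7029 of 14427, with a median of -0.18 in ΔNTD and of -0.26 to -0.11 in the other lines. H2BC21 had 342 CPM in parental cells, 259 in ΔNTD and 254 to 287 in the others. Of the heat shock genes 9 of 20 were highest in ΔNTD, beside 18.8% of all genes, and 14 lay above parental cells. Their median was 0.093, beside -0.12 to 0.0016 in the other lines. HSP90AA1, a cytosolic chaperone, had 2837 CPM in parental cells, 3401 in ΔNTD and 2692 to 3264 elsewhere. HSPA2, with the largest difference of the list, went the other way. It had 18.65 CPM in parental cells, 13.9 in ΔNTD and 14.9 to 17.3 elsewhere. Fibronectin (FN1) was at 5446 CPM in parental cells and lowest in ΔNTD, at 4372. ΔLa-module (4453) and ΔCTR (4566) lay close to ΔNTD, with FL at 5030 and ΔNTR at 5679.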
